A study of Mus musculus with 28 samples.

Results

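Embryonic stem (ES) cells were set against primordial germ cells (PGC) of mouse embryos at 10.5 days post coitum (E10.5), to see which pluripotency genes separate them. The arrays were chosen by the sample labels: 4 ES arrays and 4 E10.5 PGC arrays out of the 28 single-colour Agilent arrays of the series, which hold 2 arrays in each of 14 groups. The ES arrays came from the female line no5 of strain 129/Sv and from the male line TMA5, an F1 hybrid of TgN (deGFP)20Imeg and MSM/Ms, with 2 arrays each. The E10.5 PGC came from female and from male embryos of BDF1 x TgN(deGFP)18Imeg, again with 2 arrays each. Each ES sex is thus 1 line of a strain of its own, and the strain labels name a deGFP transgene for the PGC and for TMA5 but not for no5. The labels do not give how PGC were collected or whether feeder cells were used. Nor do they say whether both arrays of a group came from separate cultures or embryos. All p-values rest on the spread between the 2 arrays of a group, pooled over all 14 groups of the series unless stated. That spread may be technical.

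Pluripotency in ES cells rests on the transcription factors Pou5f1 (Oct4), Sox2 and Nanog, around which a wider set of so-called naive factors, among them Esrrb, Klf2, Klf4, Tbx3, Zfp42 (Rex1) and Nr0b1 (Dax1), keeps mouse ES cells self-renewing in the presence of the cytokine LIF, which acts through Stat3. PGC arise in the early postimplantation embryo under the regulators Prdm1 (Blimp1), Prdm14 and Tfap2c, and switch part of the pluripotency network back on, yet they do not form an embryo or a stem cell line unless they are cultured into embryonic germ (EG) cells. At the stage studied they have left the hindgut or are colonising the genital ridges, and they are losing much of their DNA methylation.

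Promoters of 5 of the genes are shown first, because these genes mark the 2 outcomes described below: Klf4, Nr0b1 and Zfp42 were higher in ES cells, and Pou5f1 and Nanog did not pass the test. Each sequence runs from 250 bases before to 50 bases after the gene's start (RefSeq, GRCm38.p6, on the strand of the gene). Capitals mark matches to the octamer ATTTGCAT, the STAT motif TTCCNGGAA or the AP-2 motif GCCNNNGGC, each searched on both strands, and no matches of different motifs overlapped in these 5. Nanog and Pou5f1 each had a second start in the table, and 1 is shown.
Klf4, chr4:55532426-55532725, minus strand: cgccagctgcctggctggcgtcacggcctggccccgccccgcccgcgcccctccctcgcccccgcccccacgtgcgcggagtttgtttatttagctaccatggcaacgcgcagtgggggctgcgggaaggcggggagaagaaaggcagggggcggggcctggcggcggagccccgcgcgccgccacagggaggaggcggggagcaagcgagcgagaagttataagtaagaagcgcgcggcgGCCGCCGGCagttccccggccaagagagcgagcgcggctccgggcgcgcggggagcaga
Nr0b1, chrX:86191525-86191824, plus strand: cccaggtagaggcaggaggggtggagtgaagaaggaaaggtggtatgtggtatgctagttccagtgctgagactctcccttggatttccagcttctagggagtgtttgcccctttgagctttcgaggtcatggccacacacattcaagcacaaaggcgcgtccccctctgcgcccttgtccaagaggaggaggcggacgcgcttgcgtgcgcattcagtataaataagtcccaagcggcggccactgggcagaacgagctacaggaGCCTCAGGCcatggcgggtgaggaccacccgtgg
Zfp42, chr8:43306960-43307259, minus strand: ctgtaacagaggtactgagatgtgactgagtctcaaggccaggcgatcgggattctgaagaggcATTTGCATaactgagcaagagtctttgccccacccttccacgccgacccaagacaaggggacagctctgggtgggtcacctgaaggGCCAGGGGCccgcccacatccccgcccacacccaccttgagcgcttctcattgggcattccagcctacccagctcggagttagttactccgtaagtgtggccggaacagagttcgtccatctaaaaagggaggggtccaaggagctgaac
Pou5f1, chr17:35505782-35506081, plus strand: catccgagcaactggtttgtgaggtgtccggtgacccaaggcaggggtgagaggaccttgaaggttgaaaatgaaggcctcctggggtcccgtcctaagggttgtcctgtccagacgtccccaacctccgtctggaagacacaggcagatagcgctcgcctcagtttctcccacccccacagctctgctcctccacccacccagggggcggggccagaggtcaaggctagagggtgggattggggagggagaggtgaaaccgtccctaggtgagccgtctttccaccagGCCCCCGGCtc
Nanog, chr6:122707239-122707538, plus strand: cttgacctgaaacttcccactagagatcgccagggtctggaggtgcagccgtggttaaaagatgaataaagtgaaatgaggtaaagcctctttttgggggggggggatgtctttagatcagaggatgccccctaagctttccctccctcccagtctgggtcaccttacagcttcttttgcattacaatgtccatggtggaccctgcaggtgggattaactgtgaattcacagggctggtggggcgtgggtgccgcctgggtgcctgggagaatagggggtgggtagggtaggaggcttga
The capitals fall on AP-2 matches in Klf4, Nr0b1, Zfp42 and Pou5f1 and on the octamer in Zfp42 (the first run of capitals there), and the Nanog window shown holds no exact match. Sites that differ from a motif by 1 base are not marked, such as ttttgcat in the Nanog window, so a missing match does not show that a factor cannot bind.

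Over all 27025 genes with a promoter in the table, 18.5% held an AP-2 match in at least 1 promoter, 1.97% an octamer and 1.35% a STAT match. Among the pluripotency genes higher in ES cells, 7 of the 11 with a promoter held an AP-2 match (Klf4, Zfp42, Nr0b1, Stat3, Upp1, Lin28a and Cd9), against 3 of 13 that did not pass the test (Pou5f1, Nanog and Tfcp2l1), the Nanog match being at its other start. An exact octamer occurred in Zfp42 alone of these 11 and 13 genes, and none had an exact STAT match. These counts were not tested, and the motifs were chosen with results of these data known.

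A level is the log2 of a probe's processed signal minus its array's 75th percentile, taken over the 7227 probes well above background on all 28 arrays, so 0 is that percentile, and levels of different genes, which rest on different probes, are not compared. All changes are ES minus E10.5 PGC in log2 units (a change of 1 is 2-fold), each with its standard error (SE) from a limma fit to all 28 arrays, over n = 4 arrays of each cell type. Between 45.2% and 67.5% of probes were well above background on the ES arrays and between 17.8% and 40.9% on the PGC arrays. The lowest level that counted as such lay between -10.25 and -7.81 on ES arrays and between -7.59 and -3.58 on PGC arrays, so a weak transcript could be seen in ES cells and missed in PGC. A gene was tested if both arrays of 1 or more of the 4 groups detected it, that is, were well above background. It was called higher or lower at a Benjamini-Hochberg adjusted p under 0.05 only if a group of the brighter side was fully above background. Where no PGC array detected a gene, only a bound is given, as "at least N-fold", against the mean over the 4 PGC arrays of the lowest level that counted as detected. That level was -4.89 and -3.58 on the first-slide PGC arrays and -7.59 and -7.20 on the second-slide ones. On genes detected on all 8 arrays, replicates of a group correlated at 0.950 to 0.994 over 6467 genes and ES with PGC arrays at 0.816 to 0.842.

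Of 21707 genes tested, 3492 were higher (16.1%) and 2688 lower (12.4%) in ES cells, 28.5% in all, and a further 2414 passed the limma test (39.6% passed it in all) with an order that was not measured. Counts of called genes in the lists below are to be read against these shares. The median change was -0.30 over all genes tested and -0.17 over those detected on all 8 arrays. The 4 ES arrays lay on 1 slide and the PGC arrays on 2 others, replicate 1 of both sexes on the first and replicate 2 on the second, so slide and cell type cannot be told apart with a fixed term. Female and male PGC arrays of a slide deviated together (r = 0.79 over 6467 genes). The SE and adjusted p given without the slide block take the arrays as independent, so they may be too small. With slide as a random block, which treats the 8 arrays as 3 sets, 2231 of the 6180 calls remained, 1175 higher and 1056 lower, and calls lost under it are named below. The submitters' own scaling, by each array's median, adds 1.01 to every change, so signs of changes under about 1 rest on the choice of scale.

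The labelled cell types were set against their markers. Of 36 pluripotency genes with a probe, all but Tdgf1 were well above background on all 4 ES arrays, Pou5f1, Sox2, Nanog, Zfp42, Esrrb and Klf4 included, and Tdgf1 was detected on none of the 8 arrays and not tested. Of the 12 genes of PGC specification, 10 were detected on all 4 PGC arrays. Of these, Prdm1, Prdm14, Tfap2c, Dppa3, Nanos3, Dnd1, Kit, Ifitm1 and Ifitm3 were lower in ES cells and Lmnb1 was higher. Cxcr4 was detected on 2 of 4 PGC arrays and not tested, and Sox17 was detected on none and not called. Of 15 fibroblast and feeder cell markers on the arrays, 4 were higher in ES cells and 0 lower (28.5% of all genes tested were called), with a summed linear signal (in units of the array's 75th percentile, detected probes only) of 1.66 to 6.61 on ES arrays and 1.11 to 1.85 on PGC arrays. The decorin gene Dcn was the largest of these (3.87 ± 1.29, adjusted p = 0.0252), with levels of -1.18 and -1.82 on the female and -3.27 and -3.46 on the male ES arrays, against -6.61 and -6.52 on the female and -5.60 and -6.46 on the male PGC arrays. Col1a1 (2.46 ± 0.74), S100a4 (2.66 ± 0.83) and Tagln (1.40 ± 0.53) were higher too, none of the 4 calls held with slide as a random block (adjusted p from 0.281 to 0.363), and the female ES arrays had the higher Dcn, Col1a1 and S100a4 levels. Of 11 gonadal ridge and mesonephros markers 7 were tested and none was called higher or lower. Of the 7, 5 passed the limma test with an order that was not measured. Their sum was 0.0329 to 0.0557 on ES arrays, 0 on the first-slide PGC arrays and 0.106 and 0.137 on the second-slide ones. Of 9 gut epithelium and endoderm markers 5 were tested, with 2 lower in ES cells and 0 higher. Neither call held with slide as a random block. The gut marker sum was 0.0395 to 0.0799 on ES arrays and 0 to 0.111 on PGC arrays. Blood and endothelial markers gave 0.0769 to 0.198 on ES arrays and 0 to 0.188 on PGC arrays, with no call. In such bulk samples fewer cells of a type and less RNA per cell cannot be told apart, and the part of other cells in the results below was not tested.

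The lists held 40 pluripotency genes, of which 36 matched a probe and 35 were tested. Of these 15 were higher and 4 lower in ES cells and 16 did not pass the test, where 28.5% of all genes tested were called. The median change of the 35 was 0.46, or 0.35 with undetected genes at their bounds, against -0.30 over all genes tested. Calls without any overlap of ES and PGC arrays numbered 17 (14 higher, 3 lower), against 22.8% of all genes tested. On the 22 genes detected on all 8 arrays there were 6 higher and 4 lower. Of all 6467 genes detected on all 8 arrays, 1239 were higher and 2124 lower, so the share of members called there was not above that of all such genes. Sall4, Zscan10, Dppa5a and Tet1 matched no probe, and Tdgf1, the Nodal co-receptor Cripto, was not well above background on enough arrays to be tested.

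**Figure D1:**
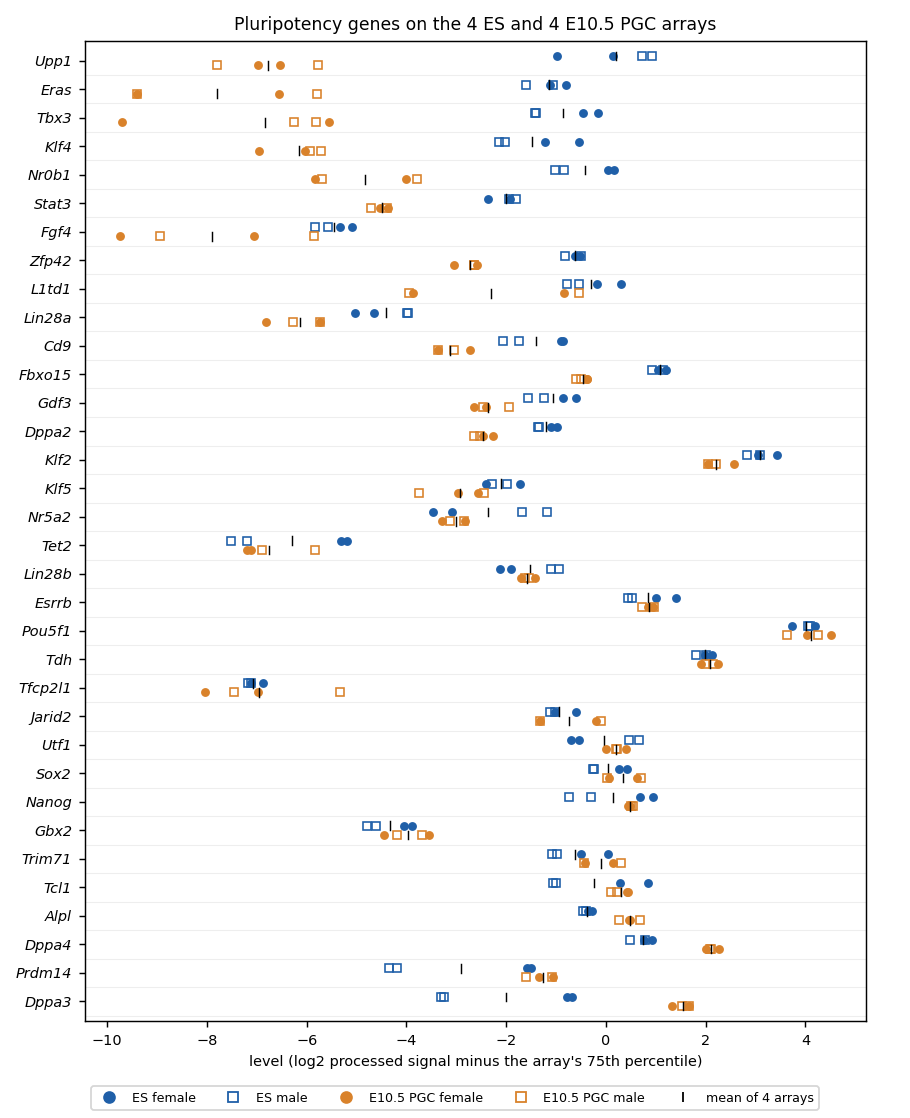
Levels of 34 of the 35 tested pluripotency genes (horizontal axis, log2 processed signal minus the array's 75th percentile) on the 4 ES arrays (blue, upper row of each gene) and the 4 E10.5 PGC arrays (orange, lower row), with females as filled circles, males as open squares and the mean of 4 arrays as a black tick. Genes run by change. Upp1, Eras, Tbx3, Klf4 and Nr0b1 at the top have means at least 4.42 units apart, while Pou5f1, Tdh and Esrrb overlap. The PGC means of these top genes include arrays that did not detect the gene. With all 8 arrays raised to a common detection floor the changes were 3.78 for Upp1, 2.43 for Eras, 2.72 for Tbx3, 2.09 for Klf4 and 3.16 for Nr0b1.

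Of the 3 core factors 0 were called between ES cells and E10.5 PGC. Pou5f1, the POU factor needed to make and keep pluripotent cells, had levels of 4.18 and 3.73 on the female and 4.05 and 4.10 on the male ES arrays, against 4.50 and 4.03 on the female and 4.25 and 3.63 on the male PGC arrays. Its change was -0.09 ± 0.41, adjusted p = 0.881, with a 95% interval of -0.95 to 0.77. It was -0.36 against the first-slide PGC arrays and 0.19 against the second. The partner of Pou5f1, the HMG-box factor Sox2, had levels of 0.26 and 0.42 on the female and -0.24 and -0.25 on the male ES arrays, against 0.63 and 0.06 on the female and 0.70 and 0.02 on the male PGC arrays. The Sox2 change was -0.31 ± 0.82, adjusted p = 0.787, with an interval of -2.05 to 1.44, whose spread is taken over all 28 arrays. Nanog, a homeodomain factor that lets ES cells renew without LIF, had levels of 0.68 and 0.94 on the female and -0.74 and -0.30 on the male ES arrays, against 0.48 and 0.44 on the female and 0.55 and 0.49 on the male PGC arrays. The Nanog change was -0.35 ± 0.34, adjusted p = 0.432, with an interval of -1.07 to 0.37. The Nanog levels of the PGC lay between those of the female and male ES lines. The other 2 Nanog probes had changes of the opposite sign, 0.70 and 0.86. For Sox2, 1 of the 3 further probes also had the opposite sign, over a range of -2.96 to 0.14.

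Among 14 naive factors tested, 6 were higher in ES cells, 1 was lower and 7 were not called. Klf4, a Krüppel-like factor used in reprogramming, had levels of -1.22 and -0.54 on the female and -2.02 and -2.15 on the male ES arrays, against -6.96 and -6.04 on the female and -5.72 and -5.93 on the male PGC arrays. The Klf4 change was 4.68 ± 0.37, adjusted p = 1.04e-07, with no overlap, and 2 of 4 PGC arrays detected it. Tbx3, a T-box factor downstream of PI3K signalling in ES cells, had levels of -0.16 and -0.45 on the female and -1.41 and -1.43 on the male ES arrays, against -5.56 and -9.71 on the female and -5.81 and -6.25 on the male PGC arrays. ES cells had the higher Tbx3 level on every array (5.97 ± 0.90, adjusted p = 7.15e-05), and 1 of the 4 PGC arrays detected it with this probe, and 2 of 4 with any of its probes. Nr0b1, an orphan nuclear receptor that binds Oct4, had levels of 0.04 and 0.17 on the female and -0.84 and -1.02 on the male ES arrays, against -5.84 and -4.00 on the female and -5.69 and -3.78 on the male PGC arrays. The change was 4.42 ± 0.63, adjusted p = 4.13e-05, at 5.35 against the first-slide PGC arrays and 3.48 against the second. Stat3, the transcription factor through which LIF acts, had levels of -1.92 and -2.37 on the female and -1.81 and -1.93 on the male ES arrays, against -4.37 and -4.53 on the female and -4.70 and -4.39 on the male PGC arrays. The Stat3 change was 2.49 ± 0.22, adjusted p = 2.41e-07. Zfp42, a zinc finger gene widely used as a marker of naive cells, was detected on all 8 arrays, at -0.61 and -0.52 on the female and -0.83 and -0.50 on the male ES arrays, against -3.05 and -2.58 on the female and -2.65 and -2.66 on the male PGC arrays. Its change was 2.12 ± 0.30, adjusted p = 4.11e-05. Klf2 was the smallest of the 6 (0.88 ± 0.32, adjusted p = 0.0354), with levels of 2.82 to 3.44 on the ES arrays and 2.04 to 2.57 on the PGC arrays. The Klf2 call ended with slide as a random block (adjusted p = 0.369) and on leaving out any of 7 of the 8 arrays.

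The other 7 naive factors were not called, and all but Klf5 overlapped between ES and PGC arrays. Esrrb, an orphan nuclear receptor of the ES network, had levels of 1.40 and 0.99 on the female and 0.45 and 0.53 on the male ES arrays, against 0.85 and 0.95 on the female and 0.72 and 0.96 on the male PGC arrays. The Esrrb change was -0.02 ± 0.21, adjusted p = 0.934, with an interval of -0.46 to 0.41. All 8 arrays detected Esrrb. Klf5 (0.83 ± 0.42), Nr5a2 (0.66 ± 0.43), Gbx2 (-0.36 ± 0.46) and Tcl1 (-0.54 ± 0.48) had intervals reaching past 1 unit on one side of 0, of -0.07 to 1.73, -0.24 to 1.57, -1.34 to 0.61 and -1.56 to 0.49 in that order. Nr5a2, a nuclear receptor that can stand in for Oct4 in reprogramming, and Tcl1, an Akt co-activator, lay apart in the 2 ES lines: Nr5a2 was at -3.47 and -3.09 in no5 and -1.69 and -1.18 in TMA5, and Tcl1 at 0.29 and 0.84 in no5 and -1.01 and -1.07 in TMA5. Tfcp2l1, a Grainyhead-family factor of the LIF response, was low in ES cells (-7.17 to -6.87) and not well above background on any PGC array, so its change of -0.12 ± 0.35 rests on dim values.

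Prdm14, which represses fibroblast growth factor receptor signalling and DNA methyltransferases in ES cells and is required in PGC, was the one naive factor lower in ES cells. Its levels were -1.59 and -1.51 on the female and -4.36 and -4.19 on the male ES arrays, against -1.34 and -1.07 on the female and -1.61 and -1.07 on the male PGC arrays. The 2 ES lines lay apart: both male-line arrays lay below every PGC array, while the female line overlapped them. The change was -1.64 ± 0.38, adjusted p = 0.00299, with a contrast of -2.93 ± 0.53 in males and -0.35 ± 0.54 in females. The difference between these contrasts did not pass the test (-2.59 ± 0.77, adjusted p = 0.146), and the overall call ended with slide as a random block (adjusted p = 0.178).

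The Dppa genes, first described for expression patterns like that of Oct4, split. Dppa3 (Stella), a maternal and germ cell protein that protects DNA methylation in the zygote, had levels of -0.79 and -0.68 on the female and -3.31 and -3.25 on the male ES arrays, against 1.32 and 1.66 on the female and 1.67 and 1.52 on the male PGC arrays. Every ES array lay below every PGC array (-3.55 ± 0.24, adjusted p = 1.64e-08), and by more in the male line, as the contrasts by sex show: -4.88 ± 0.33 in males and -2.23 ± 0.34 in females. Dppa4, a chromatin protein that works with Dppa2, had levels of 0.93 and 0.77 on the female and 0.49 and 0.79 on the male ES arrays, against 2.00 and 2.26 on the female and 2.09 and 2.11 on the male PGC arrays. The Dppa4 change was -1.37 ± 0.29, adjusted p = 0.00122. Dppa2 moved the other way, with levels of -0.98 and -1.09 on the female and -1.35 and -1.36 on the male ES arrays, against -2.26 and -2.46 on the female and -2.64 and -2.53 on the male PGC arrays and a change of 1.28 ± 0.42, adjusted p = 0.0239. With slide as a random block the calls of Dppa4 and Dppa2 ended (adjusted p = 0.13 and 0.384), and the Dppa2 call ended on leaving out any of 5 arrays (each of the 4 ES arrays and male PGC replicate 1). Under the submitters' scaling Dppa4 was -0.36 and Dppa3 -2.54. Utf1, a chromatin factor of undifferentiated cells, had a change of -0.24 ± 0.40 (interval -1.08 to 0.61). Jarid2, a partner of Polycomb complex PRC2, had a change of -0.20 ± 0.32 (interval -0.88 to 0.48), at 0.39 against the first-slide and -0.79 against the second-slide PGC arrays. The methylcytosine oxidase gene Tet2 had levels of -5.31 and -5.19 on the female and -7.19 and -7.53 on the male ES arrays, against -7.20 and -7.12 on the female and -5.83 and -6.90 on the male PGC arrays, so no5 was above TMA5, and its change was 0.46 ± 0.47 (interval -0.54 to 1.46).

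Of 12 ES-type effectors tested, 8 were higher in ES cells, 1 was lower and 3 were not called. Upp1, a uridine phosphorylase, had the largest fitted change of the 35 pluripotency genes. Its levels were -0.97 and 0.15 on the female and 0.93 and 0.72 on the male ES arrays, against -6.97 and -6.54 on the female and -5.77 and -7.80 on the male PGC arrays. The Upp1 change was 6.98 ± 0.35, adjusted p = 6.95e-10, and 1 of 4 PGC arrays detected it. Eras, a Ras-like protein of ES cells that needs no activation, was not detected on any PGC array. Its ES levels were -0.80 and -1.12 on the female and -1.61 and -1.07 on the male ES arrays, at least 25.3-fold higher than in PGC, with a mean of -1.15 on ES and -7.79 on PGC arrays (adjusted p = 3.87e-06). Cd9, a tetraspanin of the ES cell surface, had levels of -0.91 and -0.85 on the female and -2.06 and -1.75 on the male ES arrays, against -3.36 and -2.72 on the female and -3.36 and -3.05 on the male PGC arrays. The Cd9 change was 1.73 ± 0.23, adjusted p = 1.98e-05. Fbxo15, an F-box gene bound by Oct4 and Sox2, had levels of 1.04 and 1.20 on the female and 1.14 and 0.92 on the male ES arrays, against -0.39 and -0.39 on the female and -0.59 and -0.49 on the male PGC arrays. The Fbxo15 change was 1.54 ± 0.26, adjusted p = 0.000183. Both were measured on all 8 arrays without overlap. Gdf3, a TGF-beta family ligand, was also measured on all 8, at -1.57 to -0.59 on the ES arrays and -2.64 to -1.94 on the PGC arrays (1.30 ± 0.26, adjusted p = 0.00104). Lin28a, an RNA-binding protein that blocks let-7 maturation, had a change of 1.73 ± 0.37, adjusted p = 0.00138, with 2 of 4 PGC arrays detecting it. With slide as a random block the calls of Gdf3 and Lin28a ended (adjusted p = 0.119 and 0.144).

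The call of L1td1 rested on 1 PGC slide. L1td1, an RNA-binding protein of LINE-1 origin, had levels of 0.30 and -0.17 on the female and -0.78 and -0.53 on the male ES arrays, against -3.86 and -0.84 on the female and -3.95 and -0.54 on the male PGC arrays. Only the first-slide PGC arrays were low, with a change of 3.61 against them and 0.39 against the second slide (overall 2.00 ± 0.72, adjusted p = 0.0366; adjusted p = 0.202 with slide as a random block). Leaving out any of 6 arrays ended the L1td1 call. Fgf4, the growth factor that Oct4 and Sox2 switch on, was not detected on any PGC array and was at least 1.28-fold higher in ES cells, with means of -5.46 on ES and -7.90 on PGC arrays (adjusted p = 0.0287). The mean ES level of Fgf4 was below the detection levels of both first-slide PGC arrays, and the call ended on leaving out any of 6 arrays and with slide as a random block (adjusted p = 0.45). Alpl, the tissue-nonspecific alkaline phosphatase by which both ES cells and PGC are stained, was lower in ES cells, with levels of -0.36 and -0.29 on the female and -0.40 and -0.46 on the male ES arrays, against 0.47 and 0.48 on the female and 0.26 and 0.69 on the male PGC arrays. The Alpl change was -0.85 ± 0.16, adjusted p = 0.000626, but it was 0.16 under the submitters' scaling, and the call ended with slide as a random block (adjusted p = 0.0861).

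The last 3 effectors were not called. Tdh, the threonine dehydrogenase on which mouse ES cells depend, had levels of 2.13 and 2.00 on the female and 1.80 and 2.00 on the male ES arrays, against 2.25 and 1.91 on the female and 2.14 and 2.00 on the male PGC arrays. That is a change of -0.10 ± 0.19, adjusted p = 0.711, with an interval of -0.50 to 0.31. Lin28b, the paralogue of Lin28a, had a change of 0.05 ± 0.15 (interval -0.27 to 0.38), and the PGC levels (-1.71 to -1.43) lay between those of no5 (-2.13 and -1.91) and TMA5 (-0.95 and -1.10). Trim71, a let-7 target that promotes proliferation, had a change of -0.52 ± 0.31 (interval -1.19 to 0.14).

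**Figure D2:**
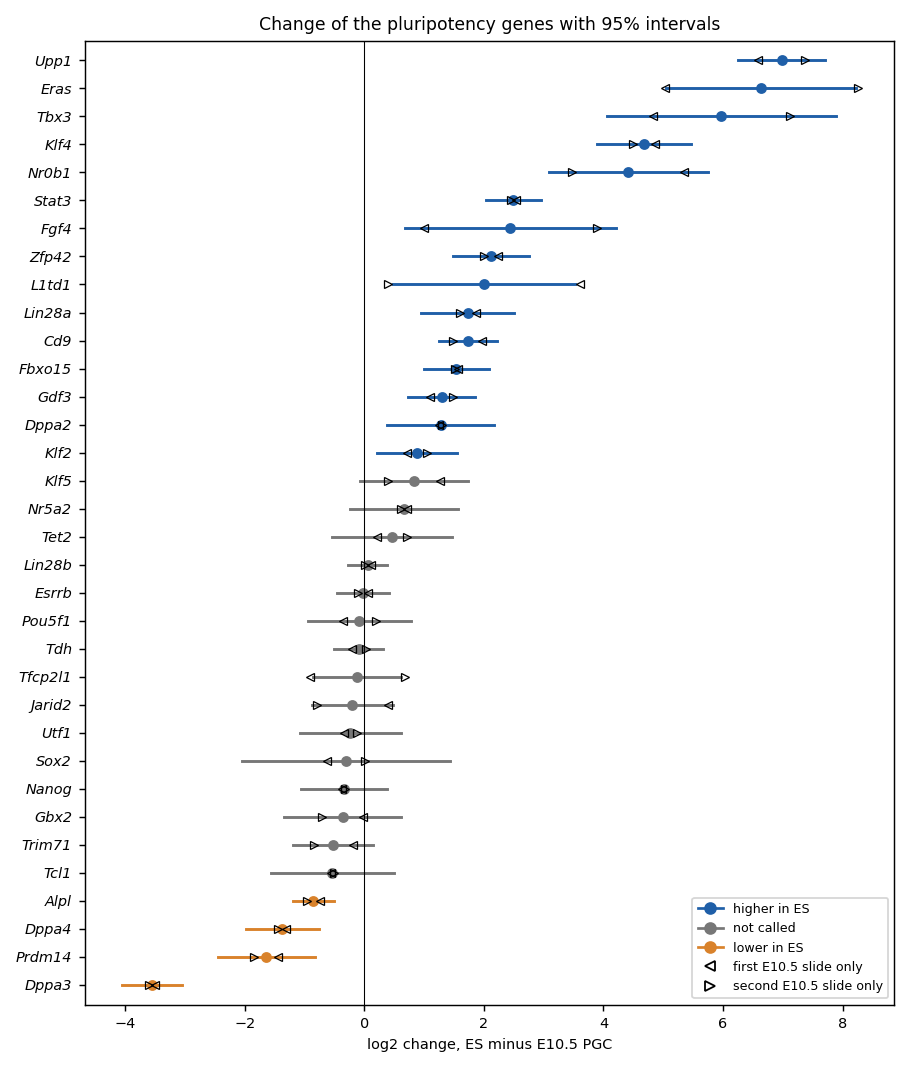
Log2 change, ES minus E10.5 PGC, of 34 of the 35 pluripotency genes with 95% intervals (points and bars; blue higher in ES, grey not called, orange lower in ES). Open triangles give the change against the PGC arrays of the first slide (pointing left) and of the second slide (pointing right); for L1td1 they lie at 3.61 and 0.39 and for Stat3 at 2.53 and 2.45. Eras, Fgf4 and Tfcp2l1 were detected on no PGC array, so their triangles compare ES levels with dim values.

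Of the 35 genes tested, 7 had a 95% interval within 1 unit of 0, a share not above the 23.7% of all genes tested. All 7 were not called, among them Pou5f1, Esrrb, Tdh, Lin28b and Jarid2. The other 9 of the 16 genes not called had a wider interval, which held a difference of 2-fold. Tfcp2l1 is among the 7, but no PGC array detected it, so its interval sets no limit on the difference. With slide as a random block 10 of the 19 calls remained: Klf4, Nr0b1, Tbx3, Stat3, Zfp42, Upp1, Eras, Cd9 and Fbxo15 higher, and Dppa3 lower. Under the submitters' scaling 18 genes were higher and 1 lower, Klf5, Nr5a2 and Tet2 being added to the higher ones. On that scale the changes were 0.92 for Pou5f1, 0.99 for Esrrb, 0.92 for Tdh, 1.06 for Lin28b and 0.81 for Jarid2, none of them called. Intervals within 1 unit of 0 therefore hold for the scale used here, and equal levels are not established.

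EG cells, the pluripotent lines derived from PGC, are also in the series, with 4 arrays. None of the 19 pluripotency genes called between ES cells and PGC was called between ES and EG cells, where 1639 of 23225 genes tested (7.06%) were, a count that was 1 with slide as a random block. Klf4 averaged -0.02 ± 0.65 in female and -1.14 ± 0.20 in male EG cells (SD, n = 2), Nr0b1 0.06 ± 0.61 in female and -1.13 ± 0.14 in male EG cells, Upp1 1.13 ± 0.30 in female and 0.86 ± 0.15 in male EG cells and Eras 0.41 ± 0.13 in female and -0.88 ± 0.09 in male EG cells. ES minus EG was -0.90 ± 0.38 for Klf4, 0.12 ± 0.63 for Nr0b1, -0.79 ± 0.35 for Upp1 and -0.91 ± 0.75 for Eras, so differences of this size between ES and EG cells were not called. Dppa3 averaged -2.13 ± 0.45 in female and -0.64 ± 0.07 in male EG cells, and ES minus EG was -0.62 ± 0.24 (adjusted p = 0.135). Of the 35 genes, 2 were called between ES and EG, neither of them called between ES cells and PGC. Trim71 averaged -3.84 ± 0.04 in female and -3.61 ± 0.02 in male EG cells, with ES minus EG at 3.09 ± 0.32 (adjusted p = 6.55e-05), and Lin28b was 0.59 ± 0.16 (adjusted p = 0.0317). Both comparisons share the ES arrays.

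**Figure D3:**
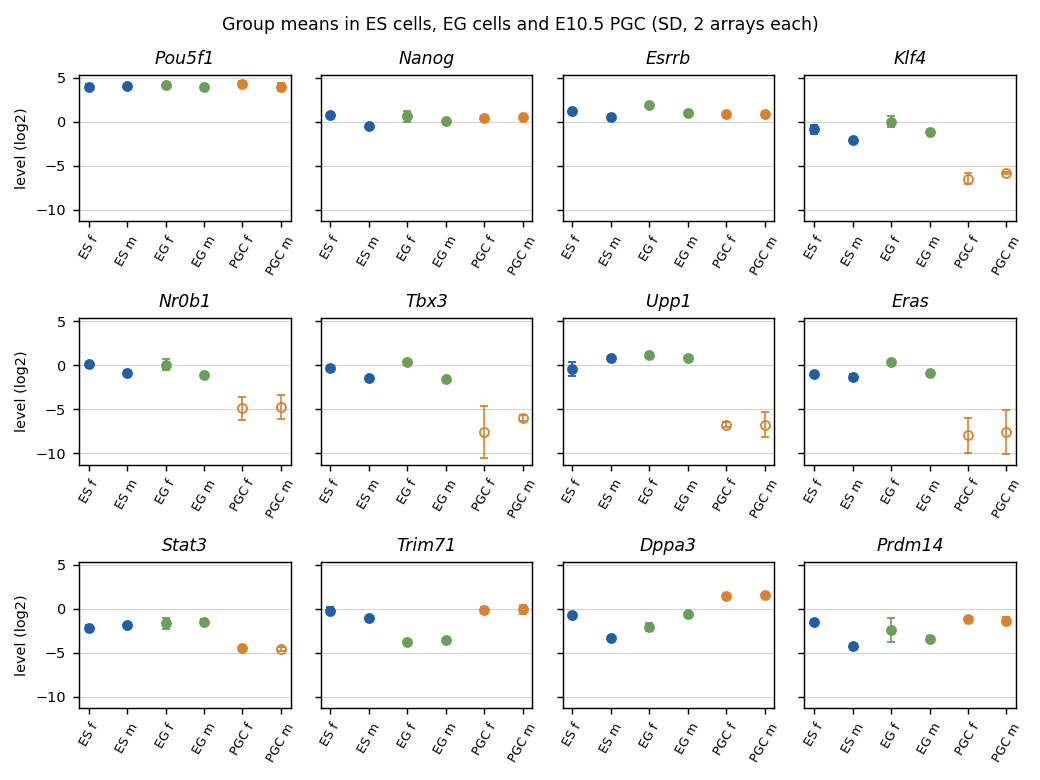
Levels (log2, array's 75th percentile at 0) of 12 genes in ES cells (blue), EG cells (green) and E10.5 PGC (orange), females left of males; points are means and bars SD of 2 arrays, and open points mark groups in which not both arrays were well above background. ES and EG cells both lie above PGC for Klf4, Nr0b1, Tbx3, Upp1 and Eras, PGC have the highest Dppa3, and Trim71 is lowest in EG cells.

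Genes of PGC specification and early germ cells were lower in ES cells for 9 of 11 tested, against 12.4% of all genes tested, with a median change of -2.42. Prdm1, the repressor that starts the germ cell programme, had levels of -4.00 and -3.72 on the female and -4.21 and -4.63 on the male ES arrays, against -1.39 and -1.11 on the female and -1.37 and -0.83 on the male PGC arrays. The Prdm1 change was -2.96 ± 0.37, adjusted p = 1.27e-05. Tfap2c, an AP-2 factor that acts with Prdm1 and Prdm14, had levels of 0.85 and 0.75 on the female and -1.25 and -0.99 on the male ES arrays, against 2.48 and 1.90 on the female and 2.39 and 1.89 on the male PGC arrays. Its change was -2.32 ± 0.34, adjusted p = 4.83e-05, and the female ES line lay nearer the PGC. Dnd1, an RNA-binding protein that keeps PGC alive, had levels of -3.18 and -3.77 on the female and -3.26 and -2.86 on the male ES arrays, against 2.03 and 1.69 on the female and 1.97 and 1.35 on the male PGC arrays. The Dnd1 change was -5.03 ± 0.23, adjusted p = 3.4e-10. Kit, the receptor for the survival factor made by cells along the PGC's path, had levels of -4.60 and -4.29 on the female and -6.38 and -6.33 on the male ES arrays, against -1.18 and -1.16 on the female and -0.98 and -1.23 on the male PGC arrays. The Kit change was -4.26 ± 0.21, adjusted p = 5.43e-10, and TMA5 was below no5. Nanos3, an RNA-binding protein needed for PGC survival, was lower too (-2.90 ± 0.35, adjusted p = 6.95e-06). So were the interferon-induced membrane protein genes Ifitm1 (-2.42 ± 0.27, adjusted p = 3.75e-06) and Ifitm3 (-1.27 ± 0.42, adjusted p = 0.0253), both early PGC markers. The Ifitm3 call ended with slide as a random block (adjusted p = 0.347). Lmnb1, a nuclear lamina gene, opposed the rest, with levels of 0.34 and 0.40 on the female and 0.31 and 0.15 on the male ES arrays, against -2.43 and -1.95 on the female and -2.63 and -2.36 on the male PGC arrays and a change of 2.64 ± 0.30, adjusted p = 4.1e-06.

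Among 13 genes of later germ cells and genome defence, 2 were higher in ES cells, 5 lower, 4 not called and 2 without a measured order. Piwil2, a PIWI protein that binds small RNAs against transposons, had levels of -2.81 and -2.81 on the female and -1.59 and -2.07 on the male ES arrays, against 0.19 and 0.44 on the female and 0.15 and 0.18 on the male PGC arrays. The Piwil2 change was -2.56 ± 0.17, adjusted p = 9.39e-09. Ddx4 (Vasa), a germ cell RNA helicase, had levels of -4.47 and -4.14 on the female and -3.81 and -4.13 on the male ES arrays, against -2.57 and -0.93 on the female and -1.88 and -1.35 on the male PGC arrays. The Ddx4 change was -2.46 ± 0.34, adjusted p = 2.73e-05. Dazl, a germ cell RNA-binding protein, was lower as well (-2.03 ± 0.50, adjusted p = 0.0045), a call that ended with slide as a random block (adjusted p = 0.215). Tdrd12, a Tudor protein of the same small RNA pathway, went the other way, with levels of 0.28 to 0.52 on the ES arrays and -1.17 to -0.89 on the PGC arrays (1.42 ± 0.21, adjusted p = 4.95e-05), as did the meiotic axis gene Hormad1 (1.38 ± 0.43, adjusted p = 0.0176; adjusted p = 0.315 with slide as a random block). Stra8, the gene switched on at entry into meiosis, was not detected on any PGC array and was at least 4.16-fold higher in ES cells, at means of -3.76 on ES and -7.88 on PGC arrays (adjusted p = 0.000666, and 0.0625 with slide as a random block).

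All 3 Rhox genes with a probe, homeobox genes in a cluster on the X chromosome, were lower in ES cells, with a median change of -4.36. Rhox9 had levels of 0.51 and 0.48 on the female and -3.09 and -2.91 on the male ES arrays, against 4.66 and 4.0 on the female and 4.38 and 4.04 on the male PGC arrays. The Rhox9 change was -5.52 ± 0.22, adjusted p = 5.87e-11. Rhox6 had levels of 0.81 and 0.98 on the female and -3.35 and -3.08 on the male ES arrays, against 3.74 and 2.87 on the female and 3.35 and 2.82 on the male PGC arrays. The Rhox6 change was -4.36 ± 0.22, adjusted p = 6.95e-10. In both genes TMA5 lay below no5 and no5 below the PGC. Rhox5 (Pem) differed less, at 0.87 to 2.03 on the ES arrays and 2.39 to 2.42 on the PGC arrays (-0.94 ± 0.28, adjusted p = 0.0155), was 0.07 under the submitters' scaling and was not called with slide as a random block (adjusted p = 0.309).

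The contrast was also made within each sex, which sets 1 ES line against PGC of its sex. In females 4242 of 21552 genes were called (19.7%), 2469 higher (11.5%) and 1773 lower (8.23%), and in males 4039 of 16061 (25.1%), 2334 higher (14.5%) and 1705 lower (10.6%). The difference between the male and the female contrast was called for 194 of 21707 genes (0.894%), a count that was 1 with only these 4 groups in the fit and 765 with slide as a random block. Among the pluripotency genes this was Dppa3 alone (male minus female -2.66 ± 0.48, adjusted p = 0.0124). Outside them Rhox6 (-3.90 ± 0.43, adjusted p = 0.000194), Rhox9 (-3.37 ± 0.44, adjusted p = 0.00117) and Kit (-1.97 ± 0.41, adjusted p = 0.0306) were lower by more in the male line. Nkd1, a Wnt antagonist, was lower by more in the female line (1.83 ± 0.39, adjusted p = 0.0354). Line, sex and strain cannot be told apart here.

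**Figure D4:**
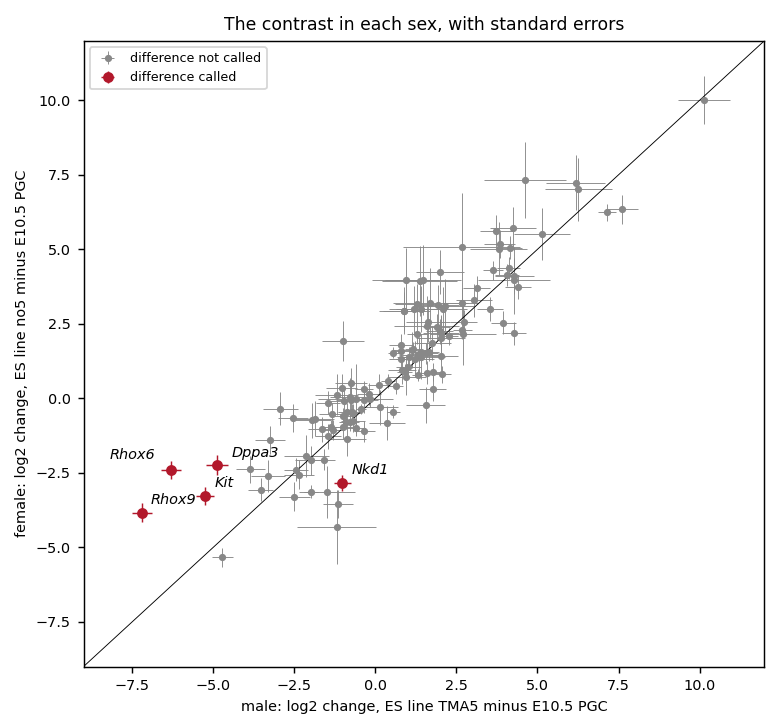
Log2 change, ES minus E10.5 PGC, in females (line no5, vertical axis) against males (line TMA5, horizontal axis) for the 135 named genes of the lists tested in both, with SE bars and the line of equality. The 5 genes in red, Rhox6, Rhox9, Dppa3, Kit and Nkd1, are those whose difference between the sexes was called.

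Genes of DNA methylation held large differences. Of 15 tested, 5 were higher and 1 lower in ES cells, 8 were not called and 1 had no measured order. Dnmt3l, the partner that activates the de novo methyltransferases, was not detected on any PGC array and had ES levels of 2.19 and 1.99 on the female and 2.68 and 2.58 on the male ES arrays. Dnmt3l was at least 289-fold higher in ES cells, at means of 2.36 on ES and -7.70 on PGC arrays (adjusted p = 2.62e-09). Dnmt3b, a de novo methyltransferase, had levels of 2.02 and 1.87 on the female and 2.87 and 3.01 on the male ES arrays, against -4.11 and -4.49 on the female and -4.10 and -4.29 on the male PGC arrays. Every ES array was above every PGC array, with a change of 6.69 ± 0.20, adjusted p = 2.57e-12. Uhrf1, which brings Dnmt1 to newly copied DNA, had levels of 0.13 and -0.04 on the female and -0.10 and -0.24 on the male ES arrays, against -4.15 and -4.05 on the female and -4.76 and -3.72 on the male PGC arrays. The Uhrf1 change was 4.11 ± 0.27, adjusted p = 1.03e-08. Dnmt1, the maintenance enzyme, and Dnmt3a, the other de novo enzyme, are named after their values were seen, and neither was called. Dnmt1 had levels of -1.07 and -1.04 on the female and -1.82 and -1.77 on the male ES arrays, against -1.70 and -0.27 on the female and -1.93 and -0.15 on the male PGC arrays (-0.41 ± 0.34, interval -1.12 to 0.30). The Dnmt1 change was 0.39 (adjusted p = 0.149) against the first-slide PGC arrays and -1.21 (adjusted p = 0.00079, past the threshold) against the second. Dnmt3a had a change of 0.29 ± 0.25 (interval -0.24 to 0.82). The cytidine deaminase gene Apobec1 was not detected on any PGC array and was at least 2.29-fold higher (means -4.62 on ES and -7.24 on PGC arrays, adjusted p = 0.0048, and 0.201 with slide as a random block). The repair scaffold gene Xrcc1 was lower (-0.72 ± 0.27, adjusted p = 0.0426), at 0.29 under the submitters' scaling, and was not called with slide as a random block (adjusted p = 0.303).

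Of 15 histone methylation genes, 5 were higher and 1 lower in ES cells. Eed, a core subunit of PRC2, had levels of -0.18 to 0.24 on the ES arrays and -1.63 to -0.80 on the PGC arrays (1.21 ± 0.24, adjusted p = 0.000821), while its catalytic partner Ezh2 was lower (-0.59 ± 0.20, adjusted p = 0.0291), at 0.42 under the submitters' scaling. Kdm4c, a histone H3 lysine demethylase, was higher (2.11 ± 0.40, adjusted p = 0.000541), as were Kdm6a, an X-linked demethylase (1.22 ± 0.27), and Cbx7, a reader of the Polycomb mark (0.90 ± 0.17). Of these, Kdm6a and Cbx7 were not called with slide as a random block (adjusted p = 0.0837 and 0.0973), nor was Ezh2 (0.311). Among 15 imprinted genes, which are expressed from 1 parental allele, 3 were higher, 1 was lower and 10 were not called, close to the 28.5% called over all genes tested. Impact, a translational regulator, had levels of -0.15 and 0.22 on the female and -0.41 and -0.80 on the male ES arrays, against -3.16 and -3.15 on the female and -3.47 and -3.07 on the male PGC arrays. The Impact change was 2.93 ± 0.36, adjusted p = 8.6e-06. Zrsr1, a splicing factor, was at -2.35 to -0.94 on the ES arrays and -2.82 to -2.45 on the PGC arrays (1.05 ± 0.13, adjusted p = 1.32e-05), and Snrpn was 1.40 ± 0.44. Dlk1, a Notch-type ligand of the embryo, was lower (-1.35 ± 0.41). Neither Snrpn nor Dlk1 was called with slide as a random block (adjusted p = 0.214 and 0.311).

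In LIF and STAT3 signalling 5 of 8 genes were higher in ES cells and 1 was lower, against 16.1% and 12.4% of all genes tested. Beside Stat3, Bcl3, a partner of NF-kappaB that Stat3 induces, had levels of -1.14 and -1.26 on the female and -2.35 and -1.86 on the male ES arrays, against -6.65 and -6.12 on the female and -5.55 and -6.32 on the male PGC arrays. The Bcl3 change was 4.51 ± 0.33, adjusted p = 4.57e-08, with 2 of 4 PGC arrays detecting it. The feedback inhibitor Socs3 was higher (1.92 ± 0.57, adjusted p = 0.0131), but PGC male replicate 1 was above every ES array at -2.12, and the call ended with slide as a random block (adjusted p = 0.143). Junb was not detected in PGC and at least 1.45-fold higher (means -5.28 on ES and -7.38 on PGC arrays, adjusted p = 0.00662, and 0.311 with slide as a random block). Its mean ES level too was below the detection levels of both first-slide PGC arrays, against which the change was 1.14. The kinase gene Jak1, upstream of Stat3, was lower (-1.18 ± 0.24, adjusted p = 0.000857; adjusted p = 0.096 with slide as a random block).

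In Nodal signalling 3 of 7 tested genes were higher and 3 were lower. The ligand Nodal (2.02 ± 0.54, adjusted p = 0.00777) and its antagonists Lefty1 and Lefty2 were higher in ES cells. The Nodal change was 3.20 against the first-slide PGC arrays and 0.83 (adjusted p = 0.164, not called) against the second. Lefty1 had levels of 2.09 and 1.88 on the female and 2.41 and 2.20 on the male ES arrays, against -1.71 and -0.90 on the female and -0.90 and -0.60 on the male PGC arrays. The Lefty1 change was 3.17 ± 0.40, adjusted p = 1.24e-05, with no overlap, and Lefty2 was at -0.53 to 0.64 on the ES arrays and -3.29 to -1.58 on the PGC arrays (2.22 ± 0.50, adjusted p = 0.00213). The signal transducer Smad2 was lower (-1.16 ± 0.16, adjusted p = 3.34e-05), as were the 2 further called genes of the list. With slide as a random block Lefty1 and Smad2 stayed called, and Nodal and Lefty2 did not (adjusted p = 0.117 and 0.125). In BMP signalling 0 of 12 genes were higher and 5 lower. Bmp7, a ligand of the family, had levels of -4.95 and -4.58 on the female and -5.23 and -5.61 on the male ES arrays, against -1.70 and -1.70 on the female and -1.99 and -1.77 on the male PGC arrays. The Bmp7 change was -3.30 ± 0.27, adjusted p = 1.34e-07. Smad6, an inhibitor of the BMP pathway, had levels of -4.79 and -5.04 on the female and -6.40 and -6.61 on the male ES arrays, against -2.41 and -2.65 on the female and -2.65 and -2.64 on the male PGC arrays. The Smad6 change was -3.12 ± 0.32, adjusted p = 1.47e-06. The target gene Id3, whose product blocks differentiation factors in ES cells, was lower (-1.60 ± 0.33, adjusted p = 0.00115), with lower levels in TMA5 (-1.98 and -1.48, against 0.30 and -0.13 in no5), and was not called with slide as a random block (adjusted p = 0.118). The inhibitor Smad7 was lower (-0.80 ± 0.27), at 0.21 under the submitters' scaling, and was not called with slide as a random block (adjusted p = 0.347).

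Of 11 FGF and ERK genes, 3 were higher and 2 lower in ES cells. Beside Fgf4 these were Fgfr4, not detected in PGC and at least 1.11-fold higher (means -5.66 on ES and -8.09 on PGC arrays, adjusted p = 0.0148), and the feedback inhibitor Spry2 (2.09 ± 0.48, adjusted p = 0.00253). The mean ES level of Fgfr4 was below the detection levels of both first-slide PGC arrays, against which its change was 0.85, so those arrays could not have shown it at that level. The ERK phosphatase genes Dusp4 (-2.35 ± 0.33, adjusted p = 3.85e-05) and Dusp6 (-1.34 ± 0.30, adjusted p = 0.00189) were lower. With slide as a random block Dusp4 stayed called (adjusted p = 0.0196), and Fgfr4 (0.275), Spry2 (0.137) and Dusp6 (0.134) did not. In Wnt signalling 1 of 12 genes was higher and 4 were lower. Tcf7l1 (Tcf3), a repressor of pluripotency genes in ES cells, had levels of -0.48 and -0.44 on the female and 0.59 and 0.65 on the male ES arrays, against -2.88 and -3.12 on the female and -3.47 and -3.19 on the male PGC arrays. The Tcf7l1 change was 3.25 ± 0.27, adjusted p = 1.69e-07, while its relatives Lef1 (-1.82 ± 0.25, adjusted p = 3.24e-05) and Tcf7l2 (-2.32 ± 0.62, adjusted p = 0.00742) were lower. Tcf7l2 was at -1.68 on female ES replicate 1 and 1.32 or above on the other ES arrays, and was not called with slide as a random block (adjusted p = 0.307). Of 9 genes of the Myc network, 3 were higher and 1 lower. Myc had levels of -2.81 and -2.91 on the female and -3.74 and -3.51 on the male ES arrays, against -5.68 and -6.02 on the female and -5.74 and -5.68 on the male PGC arrays. The Myc change was 2.54 ± 0.54, adjusted p = 0.00134, and Mycl was lower (-2.03 ± 0.35, adjusted p = 0.000226). Neither was called with slide as a random block (adjusted p = 0.115 and 0.058).

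Of 16 genes of primed pluripotency and early lineages with a probe, tested or not, 10 were below background on all 4 PGC arrays. Of all 21707 genes tested, 6547 were. That count leaves out genes too dim to be tested, so the counts are not compared. Of 12 tested, 3 were higher and 1 was lower in ES cells. Pou3f1 (Oct6), a POU factor of the epiblast, had levels of -0.11 and -0.57 on the female and 0.50 and 1.12 on the male ES arrays, against -2.49 and -2.54 on the female and -3.96 and -2.97 on the male PGC arrays. The Pou3f1 change was 3.23 ± 0.28, adjusted p = 2.21e-07. Zic2, a zinc finger factor of the primed state, was not detected in PGC and at least 12.6-fold higher (means -2.16 on ES and -7.48 on PGC arrays, adjusted p = 5.35e-06). Cdx2, a caudal-type factor of trophoblast and hindgut, was lower (-2.76 ± 0.88, adjusted p = 0.0197) with slide as a random block ending the call (adjusted p = 0.271).

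Metabolic genes differed as well. Of 12 glycolysis genes, 6 were higher and 2 lower in ES cells. Ldha, the lactate dehydrogenase subunit that favours lactate production, had levels of 2.63 and 2.33 on the female and 2.89 and 2.83 on the male ES arrays, against 0.65 and 0.14 on the female and 0.91 and 0.27 on the male PGC arrays. The Ldha change was 2.18 ± 0.20, adjusted p = 4.15e-07. Hk2, which phosphorylates glucose, was higher (1.40 ± 0.17, adjusted p = 7.35e-06), as were Tpi1 (1.43 ± 0.19), Aldoa (1.33 ± 0.22) and Gapdh (1.04 ± 0.13). Pkm (-0.40 ± 0.12, adjusted p = 0.0128) and Ldhb (-0.72 ± 0.24, adjusted p = 0.0256) were lower, at 0.61 and 0.29 under the submitters' scaling, and were not called with slide as a random block (adjusted p = 0.277 and 0.239). Of 14 amino acid transporters, 6 were higher and 1 lower. The cationic transporter Slc7a3 had levels of 1.79 and 1.67 on the female and 0.79 and 0.62 on the male ES arrays, against -3.21 and -3.44 on the female and -3.47 and -3.40 on the male PGC arrays. The Slc7a3 change was 4.60 ± 0.28, adjusted p = 4.96e-09, and its relative Slc7a1 was at -1.33 to -0.56 on the ES arrays and -5.11 to -4.51 on the PGC arrays (3.97 ± 0.23, adjusted p = 2.61e-09). Slc38a2, a transporter of neutral amino acids, was higher (1.61 ± 0.23), and Slc7a5 was lower (-0.81 ± 0.20) but 0.20 under the submitters' scaling, and not called with slide as a random block (adjusted p = 0.193).

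Of 18 proliferation genes, 3 were higher, 4 lower and 11 not called, where 16.1% of all genes tested were higher and 12.4% lower. Cyclin D1 (Ccnd1), which drives entry into S phase, had levels of 0.09 and -0.19 on the female and -0.33 and -0.24 on the male ES arrays, against -3.78 and -5.06 on the female and -4.47 and -4.33 on the male PGC arrays. The Ccnd1 change was 4.25 ± 0.26, adjusted p = 4.96e-09. The cell cycle inhibitor Cdkn1a (p21) was higher too, at 0.17 to 0.99 on the ES arrays and -1.66 to -1.43 on the PGC arrays (2.14 ± 0.31, adjusted p = 4.15e-05). Of 9 genes of germ cell survival, 2 were higher, 3 lower and 4 not called. The higher ones were the pro-apoptotic gene Bax (1.48 ± 0.20, adjusted p = 2.35e-05) and its regulator Trp53 (1.20 ± 0.20, adjusted p = 0.000219). The lower ones were Dnd1, Kit and Nanos3, with the larger changes given above. Of 10 adhesion genes, 5 were higher and 2 lower. The tight junction gene Cldn4 was not detected in PGC and at least 22.8-fold higher (means -1.31 on ES and -8.01 on PGC arrays, adjusted p = 8.36e-07), and Cldn6 had a change of 3.27 ± 0.28, adjusted p = 2.49e-07. The integrin gene Itga6 (4.06 ± 0.28, adjusted p = 2.34e-08) and the adhesion receptor gene Icam1 (4.19 ± 0.43, adjusted p = 1.4e-06) were higher. Itgb1 (-0.59 ± 0.21) and Tjp1 (-0.80 ± 0.21) were lower, at 0.42 and 0.21 under the submitters' scaling, and were not called with slide as a random block (adjusted p = 0.4 and 0.196).

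Immediate early genes, which respond within minutes to growth factors and to handling of cells, were higher in ES cells for 6 of 14 and lower for 0, with a summed signal of 5.63 to 9.37 on ES arrays and 2.44 to 2.78 on PGC arrays. Egr1 had levels of 1.24 and 1.13 on the female and -0.15 and -0.10 on the male ES arrays, against -4.01 and -5.06 on the female and -4.75 and -4.00 on the male PGC arrays. The Egr1 change was 4.99 ± 0.50, adjusted p = 1.12e-06. Of the 4 housekeeping genes called out of 9, Gapdh, Hprt (0.48 ± 0.17) and B2m were higher and Actb was lower (-0.67 ± 0.21), the last at 0.34 under the submitters' scaling. Hprt and Actb were not called with slide as a random block (adjusted p = 0.319 and 0.21). The part of handling, of RNA amount or of slide in these results was not tested beyond the values given.

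Beside the sign changes given above, the submitters' scaling ended the calls of 17 genes described as lower: Tfap2c, Ddx4, Dazl, Ifitm3, Smad2, Id3, Jak1, Dusp4, Dusp6, Lef1, Tcf7l2, Nkd1, Mycl, Cdx2, Dlk1, Prdm14 and Dppa4, whose changes there ran from -1.75 to -0.15. Leaving out a single array ended further calls, for Itgb1 with any of the 8 arrays, for Hprt, Smad7, Tagln and Xrcc1 with any of 6, for Dcn, Ezh2 and Ifitm3 with any of 5, for Cdx2 and Ldhb with any of 4, for Dlk1, Fgfr4, Hormad1 and Snrpn with any of 3, for Actb, Rhox5 and S100a4 with either of 2, and for Col1a1 and Pkm with 1. With all arrays raised to a common detection floor the calls of Myc (0.37, adjusted p = 0.244), Socs3 (0.35), B2m (0.54), Stra8 (0.15), Hormad1 (0.37), Dcn (1.14) and Dlk1 (-0.70) ended. Cldn6 (0.37), Spry2 (0.59) and Kdm4c (0.71) kept their calls there with much smaller changes. The called genes Fgf4, Fgfr4, Apobec1, Junb, Lin28a, Cdx2, Nkd1 and Apoa1 lay at or below that floor on all 8 arrays. No difference was left to test in them, so their calls did not hold there either. Against the second-slide PGC arrays alone the calls of Snrpn (0.54), Dlk1 (-0.94), Ifitm3 (-0.80), Ezh2 (-0.43), Smad7 (-0.62), Tjp1 (-0.53), Xrcc1 (-0.49), Rhox5 (-0.94) and Hormad1 (1.37) ended. Against the first-slide ones alone those of Hprt (0.26), Tagln (0.78), S100a4 (2.02), Col1a1 (2.15), Socs3 (0.89), Klf2 (0.71) and Ldhb (-0.57) ended, and with either slide alone those of Actb, Cdx2, Dcn, Dppa2 and Itgb1 ended. Of the genes detected on no PGC array, Fgf4 (0.99), Fgfr4 (0.85), Apobec1 (1.22) and Junb (1.14) also lost their calls against the first-slide arrays alone, and kept them against the second-slide ones.

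**Figure D5:**
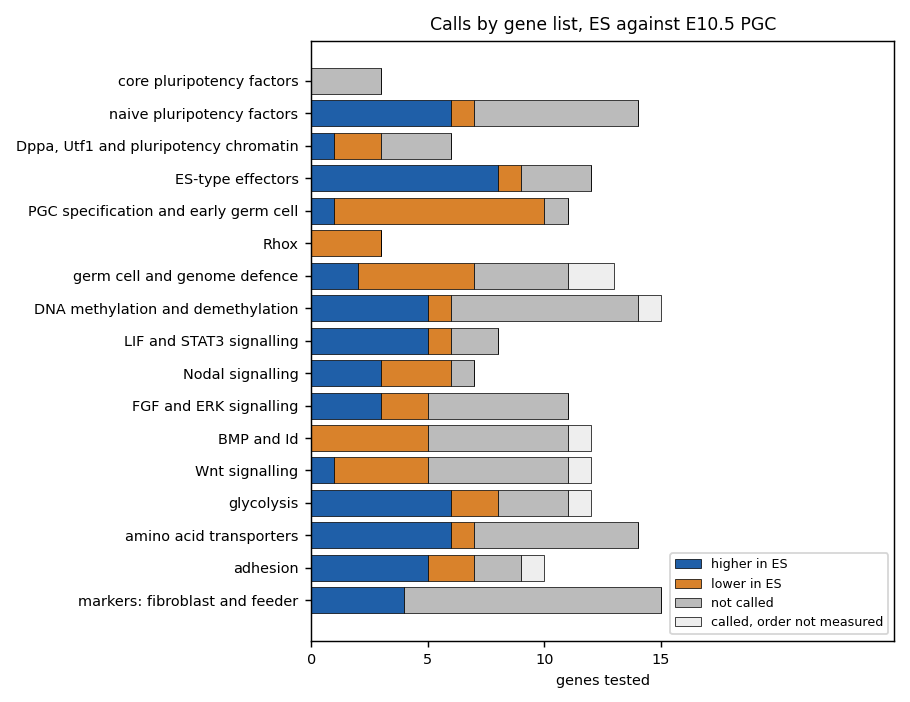
Number of tested genes (horizontal axis) of 17 lists that were higher in ES cells (blue), lower in ES cells (orange), not called (grey) or called with an order that was not measured (pale). The 3 core factors are all grey, the ES-type effectors mostly blue (8 of 12), and the PGC specification list mostly orange (9 of 11).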

How the data were processed

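RNA of 28 samples was labelled with Cy3 and hybridised to Agilent arrays, and the deposited scanner files give processed signal as intensity, from Agilent Feature Extraction 10.5.1.1 per the submitters' processing notes. The deposited value table holds log2 of that signal minus each array's median, to within 0.00252, as a comparison with the scanner files showed. The array coordinates (build mm9) were not used, and gene names were updated through RefSeq (GRCm38.p6).

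Here 1417 control spots and 514 non-uniform probes were removed and 43289 probes kept. Log2 processed signal was scaled to the array's 75th percentile, over the 7227 probes well above background on all 28 arrays, and the probe with the highest mean stood for a gene, which gave 38726 genes or features. The 14 group means were fitted with lmFit and eBayes of limma 3.58.1 in R 4.3.3, with Benjamini-Hochberg adjustment over all genes tested. No spot was saturated, and precision is limited by the 2 arrays per group. The code was tested on simulated data. Beside the pluripotency genes, the text names the 4 largest called changes of each list, members of opposite sign, and the 12 highest and 12 lowest genes outside the lists that did not overlap, apart from Dnmt1, Dnmt3a, Tfap2c, Ifitm1 and Ifitm3, which were chosen after their values were seen, and some named members are left out for length or are not reported here. The members and lists were chosen with earlier results of these data known. Alternatives covered scaling, background correction (normexp with an offset of 50 on the median spot signal, since no mean signal was used), filters, floor, probes, slide, replicate block, single arrays and a 2-fold rule.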

Additional observations from a re-analysis of the deposited data

Results flagged for a closer look

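The contrast of ES cells with E10.5 PGC differed between the sexes, each with its own ES line, for 5 genes of the text, by a test of the difference itself in the same limma fit (male minus female). With only the 4 groups compared in the fit, 1 of all genes tested was called for this difference, so at least 4 of these 5 were not. Dppa3 had -2.66 ± 0.48 (adjusted p = 0.0124), with -4.88 ± 0.33 in males and -2.23 ± 0.34 in females. Kit had -1.97 ± 0.41 (adjusted p = 0.0306), with -5.25 ± 0.28 in males and -3.28 ± 0.29 in females. Rhox9 had -3.37 ± 0.44 (adjusted p = 0.00117), with -7.20 ± 0.30 in males and -3.84 ± 0.31 in females. Rhox6 had -3.90 ± 0.43 (adjusted p = 0.000194), with -6.30 ± 0.30 in males and -2.41 ± 0.31 in females. In these 4 genes male PGC and female PGC overlapped and both arrays of TMA5 lay below both of no5. Nkd1 had 1.83 ± 0.39 (adjusted p = 0.0354), with -1.02 ± 0.27 in males and -2.85 ± 0.28 in females, and no5 lay below TMA5. Groups of 2 arrays are too small to look for an array that stands apart.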

How the results depend on the processing

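Of the 19 called pluripotency genes, 10 kept their direction and call under every alternative that tested them and 9 lost the call under at least 1, Alpl also changing sign. Of the 16 not called, 12 stayed so, and Klf5, Nr5a2, Tet2 and Tfcp2l1 passed the test under at least 1. Of 122 other called genes named by the rule, 63 kept their call under every alternative that tested them. Requiring all arrays compared to be above background leaves out genes missed on any PGC array, among them Klf4, Nr0b1, Tbx3, Stat3, Upp1, Eras, Dnmt3l, Dnmt3b and Uhrf1, so their calls were not tested there. Unless given with a value, the cause was not tested.

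Counts of calls moved by over 1.5 times as follows. For ES against E10.5 PGC (6180) there were 3861 with all arrays compared above background, which tests fewer genes, 4071 with only the groups compared, 2231 with slide as a random block (consensus correlation 0.5564) and 3807 with a 2-fold rule. The 19 pluripotency calls became 10 with all arrays above background and 10 with the slide block. The female contrast (4242) gave 2206 with the deposited values, 1962 with only the groups compared and 1743 with the slide block, and the male contrast (4039) gave 2632 with only the groups compared and 2527 with the slide block. Their difference (194) gave 90 with the deposited values, 74 with no filter, 462 with a common floor, 1 with only the groups compared, 765 with the slide block and 452 with E10.5 arrays of the first slide only. ES against EG (1639) gave 802 with quantile normalization, 978 with normexp, 1004 with the deposited values, 711 with no filter, 5984 with only the groups compared, 1 with the slide block, 3242 with the E10.5 arrays of either slide left out of the fit and 1080 with a 2-fold rule. Leaving out 1 array at a time gave 5102 to 7425 calls for ES against E10.5 PGC, 15 to 18 for the pluripotency genes, 2283 to 4669 for females, 2435 to 5316 for males, 47 to 1010 for their difference and 599 to 2361 for ES against EG.

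With the deposited values the change turned positive for Actb (0.34), Alpl (0.16), Apoa1 (0.23), Bub1 (0.029), Ezh2 (0.42), Itgb1 (0.42), Ldhb (0.29), Pkm (0.61), Rhox5 (0.073), Slc7a5 (0.20), Smad7 (0.21), Tjp1 (0.21) and Xrcc1 (0.29), since that scale adds 1.01 to each. Tfcp2l1, detected on no PGC array, was 0.68 with the E10.5 arrays of the second slide only. The split of higher and lower calls was 3492 and 2688 as reported, 5601 and 2594 with quantile normalization and 5649 and 271 with the deposited values. Females had 1760 higher and 2208 lower calls with all probes in the percentile, and 2073 and 133 on the deposited scale. Males had 3452 and 1586 after quantile normalization, 3616 and 1653 after normexp, and 3221 and 102 on the deposited scale. For the difference it was 49 and 145 as reported, 70 and 95 with all probes, 71 and 94 after quantile normalization, 80 and 102 after normexp, and 43 and 47 on the deposited scale. For ES against EG it was 514 and 490 with the deposited values.

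Same-numbered ES and PGC arrays did not deviate together (r from -0.03 to 0.02 over 6467 genes), female and male ES arrays gave -0.17, and female and male PGC arrays, which share slides, 0.79. With the replicate block 6432 genes were called, 6151 of them shared with the fit without it, and the pluripotency count was 19. Scan day as a fixed block could not be fitted, since each slide holds ES or PGC arrays only. Signal over background limits the PGC arrays: of the 35 pluripotency genes, 10 were detected on some PGC arrays and 3 on none. Among called genes with several measured probes, 261 of 1345 had a probe of opposite sign.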

Other observations

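The genes described next lie outside the lists and were among the highest in ES cells of those called without overlap. Spp1 (osteopontin), a secreted phosphoprotein, had levels of 2.79 and 2.48 on the female and 1.62 and 1.42 on the male ES arrays, against -3.83 and -4.30 on the female and -3.04 and -3.92 on the male PGC arrays. The Spp1 change was 5.85 ± 0.31, adjusted p = 1.26e-09, all 8 arrays detecting it. Pcolce, which helps process collagen, was at 0.26 to 0.80 on the ES arrays and -3.65 to -3.01 on the PGC arrays (3.84 ± 0.43, adjusted p = 3.93e-06), and the secreted protease inhibitor Serpine2 at 0.25 to 2.00 on the ES arrays and -3.10 to -2.68 on the PGC arrays (3.81 ± 0.38, adjusted p = 1.16e-06). The matrix protease Mmp3 was not detected in PGC and at least 24.5-fold higher (means -1.20 on ES and -7.78 on PGC arrays, adjusted p = 0.00137, and 0.155 with slide as a random block), and its no5 levels (0.34 and 0.39) were above those of TMA5 (-2.65 and -2.88), as for the fibroblast markers Dcn, Col1a1 and S100a4. Trh, which encodes thyrotropin-releasing hormone, had levels of 1.03 and 1.15 on the female and 1.17 and 1.76 on the male ES arrays, against -2.25 and -1.41 on the female and -2.37 and -1.96 on the male PGC arrays. The Trh change was 3.27 ± 0.49, adjusted p = 7.06e-05. Epop, a partner of PRC2 and elongins, had levels of 2.24 and 1.49 on the female and 0.83 and 0.88 on the male ES arrays, against -2.68 and -2.66 on the female and -2.70 and -2.69 on the male PGC arrays. The Epop change was 4.04 ± 0.28, adjusted p = 2.22e-08. The protease-activated receptor gene F2rl1 was at least 33.9-fold higher (means -0.73 on ES and -7.08 on PGC arrays), and the carbonyl reductase gene Cbr3 at least 23.5-fold (means -1.26 on ES and -7.14 on PGC arrays). The other genes by the same rule were Akr1b8, Armcx1, Tmem88 and Pla2g1b.

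At the other end, Khdc1a was not detected on any ES array and was at least 58-fold lower in ES cells, at means of -11.40 on ES and -3.35 on PGC arrays (adjusted p = 1.33e-09). With all arrays raised to a common detection floor the Khdc1a change was -0.23 and not called (adjusted p = 0.0846). Hey1, a Hairy-type repressor downstream of Notch, had levels of -3.60 and -3.92 on the female and -4.00 and -3.95 on the male ES arrays, against 1.29 and 1.31 on the female and 1.40 and 1.16 on the male PGC arrays. The Hey1 change was -5.15 ± 0.19, adjusted p = 2.05e-11. Slc40a1 (ferroportin), which exports iron from cells, had levels of -4.40 and -4.35 on the female and -5.26 and -5.04 on the male ES arrays, against -0.34 and -0.68 on the female and -0.13 and -0.62 on the male PGC arrays. The Slc40a1 change was -4.32 ± 0.32, adjusted p = 4.24e-08. Hmgn5, an X-linked nucleosome-binding protein, was at -5.10 to -3.93 on the ES arrays and -0.75 to -0.17 on the PGC arrays (-4.09 ± 0.29, adjusted p = 3.08e-08). Further genes of the lowest set were Mbp, which encodes myelin basic protein (-4.21 ± 0.23, adjusted p = 1.33e-09), the neuronal adaptor subunit gene Ap3b2 (-4.77 ± 0.39, adjusted p = 1.32e-07) and Rab6b, a Rab protein of neurons (-4.80 ± 0.16, adjusted p = 1.2e-11). All 3 were detected on all 8 arrays without overlap. Ptpre, Dennd1c, Crygs and Proser2 were also among the 12 lowest. The neural and mesoderm marker list had 1 gene higher in ES cells, Tubb3 (3.41 ± 0.29, adjusted p = 2.29e-07), and 0 lower.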
